A study of Mus musculus with 98 samples.

Results

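Gene expression was compared between mouse hippocampal neurons given the tau material named hAD-tau and neurons given phosphate-buffered saline (PBS). All of them carried the PhP.eB vector virus, were unstimulated by their labels and were sampled on culture day 9. These 6 libraries, 3 with hAD-tau and 3 with PBS, were chosen by their labels, not by any measured value, and are 6 of the 98 libraries of the series. In the series, tau and PBS were combined with a control vector or with added Acss2, the gene of an acetyl-CoA synthetase that uses acetate. The cells were primary embryonic hippocampal neurons of the CD1 strain, kept in neurobasal medium with B27. Virus was added on day 5 for 48 hours, the cultures were washed with PBS, hAD-tau or PBS was added on day 7, and RNA was taken 2 days later. The groups of the same day that received the Acss2-carrying virus (upACSS2) with hAD-tau or with PBS, 3 libraries each, entered the same fit of 12 libraries, so that the spread was estimated from 4 groups. The titles name the group of each library. The treatment entry of the labels instead reads vector with PBS for the vector hAD-tau libraries and upACSS2 with hAD-tau for the upACSS2 PBS libraries, and the titles were used throughout. Nothing in the labels says whether the 3 replicates came from separate cultures, so the p-values below measure the spread between these libraries, which may be technical.

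Tau is a microtubule-binding protein of neurons that forms aggregates in Alzheimer disease, and tau material added to cultured neurons can be taken up and seed aggregation of the cell's own tau. Neuronal firing and calcium entry switch on immediate early genes within minutes, first transcription factors such as Fos, Npas4 and the Egr and Nr4a families and then effectors such as Bdnf. Embryonic hippocampal cultures also hold astrocytes, dividing progenitors and cells of the oligodendrocyte lineage beside neurons. In such bulk RNA, fewer cells of a type and less of an RNA per cell cannot be told apart.

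Total counts were 14603730 to 17933884 in the tau libraries and 17155116 to 33960722 in the PBS libraries, with PBS replicate 1 the deepest. Levels are given as CPM, edgeR's read counts scaled to a common TMM-adjusted library size, always for replicates 1, 2 and 3 in that order. Neuron markers were abundant: their summed level was 9027 to 9275 CPM with tau and 8775 to 8786 CPM with PBS. Acss2, the gene the other virus carries, was 46.02 ± 3.27 CPM with vector and tau and 43.8 ± 4.62 CPM with vector and PBS (SD, n = 3 each), against 1910 ± 163 and 1635 ± 221 CPM in the upACSS2 libraries with tau and with PBS. It thus checks the virus of each library, but not which agent was given. Tau replicate 3 stood apart from its group. Its ribosomal transcript Rn45s took 1.02% of counts against 0.253% to 0.474% in the other 5 vector libraries, and its chi-square per gene against tau replicates 1 and 2 was 8.73 and 10.5, against 3.15 between those replicates and 2.32 to 4.32 in the other groups. On the first principal component of the day 9 libraries (32.3% of the variance), tau replicates 1 and 2 lay at 0.56 and -0.065. Tau replicate 3 was at 4.69, near the PBS libraries at 5.69 to 7.22. On the second component (19.8%), tau replicates 1 and 2 lay at -6.29 and -7.63, tau replicate 3 at -2.45 and the PBS libraries at 0.69 to 4.12. Counts of genes past the threshold are therefore also given without it.

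With tau, 282 genes rose and 318 fell of 14022 tested, at a Benjamini-Hochberg adjusted p under 0.05 in edgeR's quasi-likelihood test. These 600 genes are 4.28% of those tested, with 2.01% higher and 2.27% lower. The genes that fell included the activity-regulated transcription factors Npas4 and Fosb and Olig1 of the oligodendrocyte lineage. Cell-cycle and progenitor genes such as Nes and Cenpf fell too, while Gfap of astrocytes and the synaptic kinase Camk2a rose. Astrocyte markers went both ways, with 2 higher, Gfap among them, and 3 lower of 16 tested. Most changes were small: the median log2 fold change was 0.23 among genes that rose and -0.29 among those that fell, 94 genes changed by at least 0.5 and 17 by at least 1. In 554 of the 600 (92.3%) the 3 tau values did not overlap the 3 PBS values, against 20.8% of all genes tested. A negative change was found in 7002 of the 14022 genes, and an unadjusted p under 0.05 (edgeR) in 2883 of the 14022. With 1 vector library left out, 1949 to 3508 of all genes tested had such a p. These shares over all genes are the background for the list counts below. The count depended strongly on single libraries. It was 135 without tau replicate 1, 60 without tau replicate 2, 1409 without tau replicate 3, 68 without PBS replicate 1, 435 without PBS replicate 2 and 655 without PBS replicate 3. It was 257 when only the 6 vector libraries were fitted, and 1 when the 12 libraries of day 21 shared the estimate of the spread, whose biological coefficient of variation was then 0.135 in place of 0.0420. The 1 gene was the sparse transcript B930025P03Rik, and no member of the gene lists below passed in that fit. An unadjusted p under 0.05 was found for 532 of its 14863 genes in edgeR, a share below the 0.05 that arises without any effect. The median of the activity transcription factors was then -0.21, of their effectors -0.30 and of proliferation and progenitor markers -0.38. With the 6 vector libraries alone, 5, 7 and 6 members of these lists fell. Of the 600 genes, 47 passed whichever of the 6 vector libraries was omitted, 20 higher and 27 lower.

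**Figure D1:**
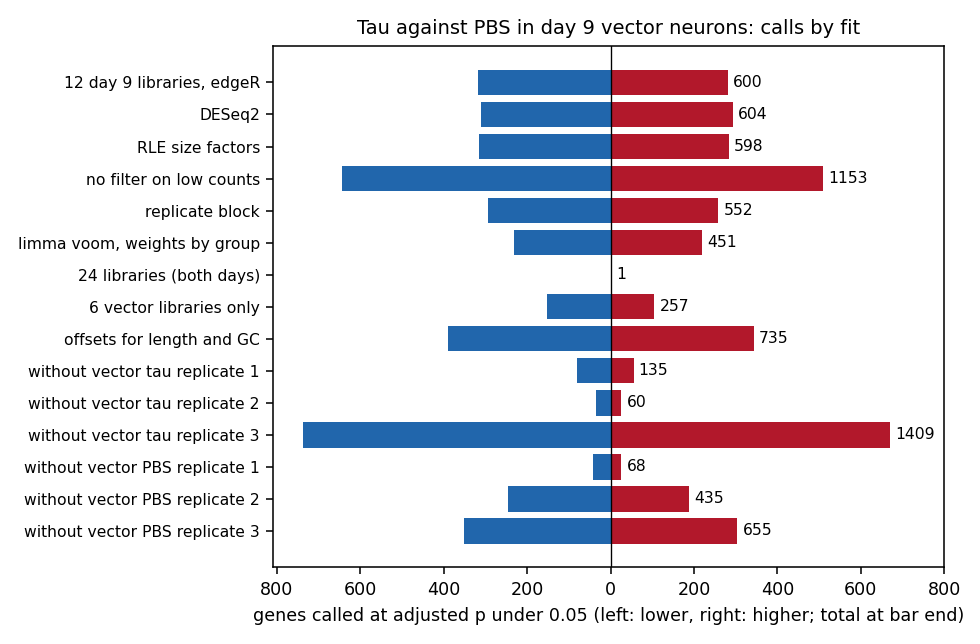
Genes that passed the threshold in tau against PBS, day 9 vector neurons, under each fit; bars to the left count genes lower with tau, bars to the right genes higher with tau, and the number at the bar is the total. The total was 600 with all 12 day 9 libraries, 1409 without tau replicate 3 and 60 without tau replicate 2.

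The promoters of the activity transcription factors that fell most are shown first. Calcium- and cAMP-regulated promoters are classically bound by CREB at the CRE, whose full palindrome is TGACGTCA and whose short form is TGACG. Each window runs from 250 bases before to 50 bases after the RefSeq start of transcription (GRCm38.p6), and capitals mark the short form on either strand.
Npas4 (chr19:4989922-4990221, minus strand): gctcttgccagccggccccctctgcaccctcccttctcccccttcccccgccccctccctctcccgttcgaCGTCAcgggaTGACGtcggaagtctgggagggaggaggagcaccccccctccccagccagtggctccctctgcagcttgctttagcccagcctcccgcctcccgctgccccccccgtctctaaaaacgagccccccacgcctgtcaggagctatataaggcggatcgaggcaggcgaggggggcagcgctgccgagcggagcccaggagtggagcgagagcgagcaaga
Fosb (chr7:19309996-19310295, minus strand): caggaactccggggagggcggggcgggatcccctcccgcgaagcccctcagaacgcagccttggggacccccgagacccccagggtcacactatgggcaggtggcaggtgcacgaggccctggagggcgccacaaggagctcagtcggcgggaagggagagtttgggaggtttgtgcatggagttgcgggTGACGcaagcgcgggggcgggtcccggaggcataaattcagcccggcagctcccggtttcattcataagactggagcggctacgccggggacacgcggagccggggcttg
Fos (chr12:85473640-85473939, plus strand): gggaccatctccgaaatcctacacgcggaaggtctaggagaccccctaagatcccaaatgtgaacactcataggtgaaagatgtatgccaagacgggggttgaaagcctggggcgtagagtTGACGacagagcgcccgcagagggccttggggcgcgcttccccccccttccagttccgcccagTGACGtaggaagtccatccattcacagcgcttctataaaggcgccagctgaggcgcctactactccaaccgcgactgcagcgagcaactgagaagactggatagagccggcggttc
Nr4a1 (chr15:101266596-101266895, plus strand): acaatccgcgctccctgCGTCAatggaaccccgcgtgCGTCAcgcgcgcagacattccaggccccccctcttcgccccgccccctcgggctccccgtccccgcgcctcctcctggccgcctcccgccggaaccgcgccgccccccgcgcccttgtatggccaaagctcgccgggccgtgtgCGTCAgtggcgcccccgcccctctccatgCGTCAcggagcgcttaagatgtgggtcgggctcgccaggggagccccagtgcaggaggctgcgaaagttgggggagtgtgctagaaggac
The short form occurred 2 times in the window of Npas4, 169 and 179 bases before the start, 1 time in that of Fosb, 60 bases before it, 2 times in that of Fos and 4 times in that of Nr4a1. None of these windows held the full palindrome or a CArG box, the motif of serum response factor. Sequence farther than 250 bases before the start was not searched, so these genes may hold either motif outside the windows. Across the RefSeq table, 20.8% of 32851 such windows held the short form, 1.79% the palindrome and 1.63% a CArG box. Among the activity transcription factors with a window, 15 of 19 genes had the short form in at least 1 window, against 23.05% of all 27025 genes with a window. The palindrome was in 2 of these 19 genes and a CArG box in 1, which came to 4 of the list's 26 windows. A match is a match of letters and was not tested for binding. The list was made of known activity-regulated genes, whether or not they fell. These shares therefore describe the list, not the change with tau.

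Of 23 activity transcription factors tested, 9 fell and 14 did not pass, and the median of the list was -0.22 against 0.0003 over all genes tested. Npas4, a factor that responds selectively to calcium entry, was at 5.44, 4.38 and 6.99 CPM with tau and 15.1, 14.2 and 12.4 CPM with PBS. Its level with tau was 40.3% of that with PBS, and the groups did not overlap. On the log2 scale this is -1.34 ± 0.18 (estimate ± SE, as below; adjusted p 4.49e-04, edgeR). Npas4 lies at GRCm38 chromosome 19, 4984355 to 4990316, minus strand. Fosb, a partner of Jun proteins in the AP-1 complex, measured 1.53, 1.24 and 2.40 CPM with tau against 5.54, 5.33 and 4.63 CPM with PBS. All 3 tau values were well below the lowest PBS value, with a log2 fold change of -1.63 ± 0.24 (adjusted p 0.00104, edgeR). Fos, the AP-1 subunit most used as a marker of recent firing, was at 7.95, 7.86 and 9.59 CPM with tau and 15.96, 16.1 and 13.8 CPM with PBS, a change of -0.87 ± 0.13 (adjusted p 0.00115, edgeR). Nr4a1, an orphan nuclear receptor, gave 5.75, 5.56 and 8.22 CPM against 13.7, 11.1 and 9.66 CPM, a change of -0.87 ± 0.17 (adjusted p 0.00593, edgeR). In each of these genes tau replicate 3 was the tau library nearest to PBS.

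Egr1, Egr3 and Egr4, zinc finger factors of the same early wave, also fell, with log2 fold changes of -0.37, -0.22 and -0.57. Nr4a2 fell too (-0.50), as did the small Maf protein Maff (-0.80), in which tau replicate 3 (2.40 CPM) lay above the lowest PBS library (2.32 CPM). The AP-1 members were not alike: Junb was at -0.22 (adjusted p 0.129) and Jun at 0.17 (adjusted p 0.353), neither past the threshold. The stress-responsive Atf3 was at 0.010 (adjusted p 0.996). The number of factors that fell was 5 without tau replicate 1, 3 without tau replicate 2, 9 without tau replicate 3, 4 without PBS replicate 1 and 8 without either of the other PBS libraries, and the median stayed between -0.27 and -0.17. Npas4, Fosb and Fos passed in all 6 of these fits.

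**Figure D2:**
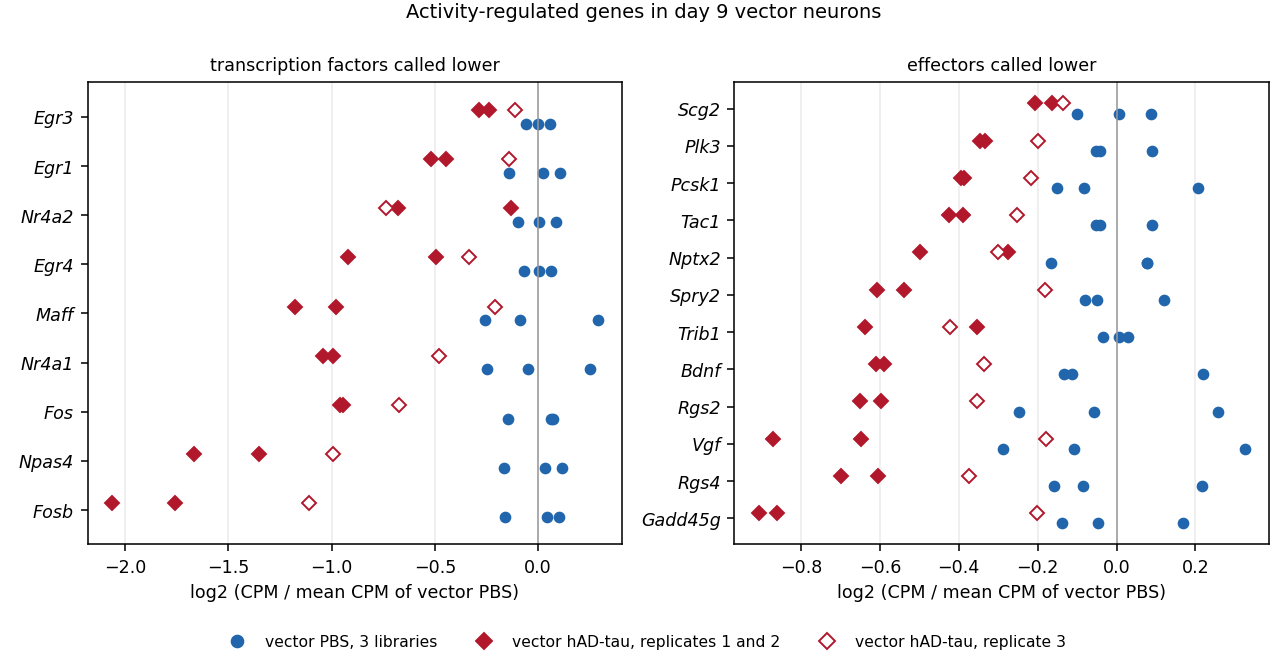
Level in each vector library of the activity transcription factors (left) and effectors (right) that fell, as log2 of CPM over the mean CPM of the 3 PBS libraries; circles are PBS, filled diamonds tau replicates 1 and 2, open diamonds tau replicate 3. In Npas4, Fosb and Fos the 3 tau libraries lie below all 3 PBS libraries, and tau replicate 3 is the tau library nearest to them.

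Effectors of activity are the products that act at synapses or in signalling. Of 38 tested, 12 fell and none rose, 29 were negative and the median was -0.33. Over all genes tested, 2.27% fell and 7002 of 14022 were negative. Bdnf, the neurotrophin that activity releases, measured 62.2, 63.1 and 75.2 CPM with tau and 110.5, 87.8 and 86.6 CPM with PBS, a change of -0.52 ± 0.10 (adjusted p 0.00574, edgeR). Rgs4 and Rgs2 shorten signalling by G protein-coupled receptors. Rgs4 was at 146, 136 and 171 CPM with tau and 257, 209 and 198 CPM with PBS, a change of -0.56 ± 0.10 (adjusted p 0.00503, edgeR). Rgs2 was at 23.7, 24.6 and 29.1 CPM against 44.5, 35.8 and 31.4 CPM, a change of -0.56 ± 0.11 (adjusted p 0.00581, edgeR). In Bdnf, Rgs4 and Rgs2 the groups did not overlap, as in 20.8% of all genes tested, and PBS replicate 1 was the highest library.

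Spry2, a feedback inhibitor of receptor tyrosine kinase signalling, fell by 0.45, the neuropeptide precursor Vgf by 0.56 and Gadd45g by 0.62 on the log2 scale. The secreted proteins and peptides Nptx2 (-0.37), Scg2 (-0.17) and Tac1 (-0.35), the prohormone convertase Pcsk1 (-0.35) and the kinase genes Plk3 (-0.30) and Trib1 (-0.47, a pseudokinase) completed the 12. Arc, whose protein traffics AMPA receptors, was at 3.55, 3.54 and 6.09 CPM with tau and 8.78, 5.79 and 5.90 CPM with PBS, and its change of -0.72 ± 0.22 missed the threshold (adjusted p 0.059, edgeR). Homer1 (-0.011), Plk2 (0.0047) and Inhba (0.0095) were near 0. The number of effectors that fell was 2 without tau replicate 1, 18 without tau replicate 3, 1 without PBS replicate 1, 10 without PBS replicate 2 and 13 without PBS replicate 3. Without tau replicate 2 no effector passed in edgeR, with 16 at an unadjusted p under 0.05. The median then ran from -0.38 to -0.17.

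Genes of cell division and of neural progenitors made up the list with the lowest median. All 19 tested had a negative log2 fold change, 10 fell and 9 did not pass, and the median was -0.41, the lowest of 31 lists. Nes, an intermediate filament of neural stem cells, was at 36.5, 41.3 and 46.7 CPM with tau and 67.1, 55.02 and 67.96 CPM with PBS, a change of -0.62 ± 0.089 (adjusted p 8.12e-04, edgeR). Cenpf, a kinetochore protein, measured 7.76, 9.04 and 10.3 CPM against 15.8, 12.05 and 16.2 CPM, a change of -0.71 ± 0.11 (adjusted p 0.00131, edgeR). Mki67, the proliferation marker Ki-67, was at 17.7, 15.2 and 16.98 CPM with tau and 23.3, 19.00 and 25.9 CPM with PBS, a change of -0.46 ± 0.10 (adjusted p 0.0137, edgeR). Top2a, which untangles replicated DNA, gave 18.6, 16.8 and 22.1 CPM against 27.6, 21.3 and 28.1 CPM, and here tau replicate 3 exceeded PBS replicate 2. Its change was -0.44 ± 0.10 (adjusted p 0.0141, edgeR). Nes, Cenpf and Mki67 did not overlap between the groups.

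Genes of late cell-cycle phases share the CHR element TTTGAA and the CCAAT box in their promoters, so these windows are shown in the same form, with both motifs on either strand in capitals.
Cenpf (chr1:189688037-189688336, minus strand): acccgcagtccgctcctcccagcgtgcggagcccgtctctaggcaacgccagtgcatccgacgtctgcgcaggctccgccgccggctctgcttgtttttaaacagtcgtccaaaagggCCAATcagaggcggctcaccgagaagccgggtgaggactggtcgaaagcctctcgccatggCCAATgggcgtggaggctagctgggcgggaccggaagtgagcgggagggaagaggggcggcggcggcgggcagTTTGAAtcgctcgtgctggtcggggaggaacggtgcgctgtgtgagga
Mki67 (chr7:135716330-135716629, minus strand): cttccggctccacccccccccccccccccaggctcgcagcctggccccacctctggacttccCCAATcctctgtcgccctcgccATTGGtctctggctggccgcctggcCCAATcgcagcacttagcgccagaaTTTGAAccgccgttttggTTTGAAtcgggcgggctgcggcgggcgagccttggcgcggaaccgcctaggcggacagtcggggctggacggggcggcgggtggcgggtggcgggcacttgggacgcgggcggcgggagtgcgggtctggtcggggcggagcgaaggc
Top2a (chr11:99024140-99024439, minus strand): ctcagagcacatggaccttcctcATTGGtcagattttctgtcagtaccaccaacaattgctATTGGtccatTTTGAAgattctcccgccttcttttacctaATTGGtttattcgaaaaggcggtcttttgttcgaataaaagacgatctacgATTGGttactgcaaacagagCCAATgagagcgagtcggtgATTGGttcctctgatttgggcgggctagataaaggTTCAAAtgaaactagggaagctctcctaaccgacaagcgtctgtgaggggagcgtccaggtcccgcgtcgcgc
TTTGAA occurred 1 time in the window of Cenpf and 2 times each in those of Mki67 and Top2a, and the CCAAT box 2, 3 and 6 times. Of 17 proliferation and progenitor genes with a window, 7 held TTTGAA and 14 held CCAAT in at least 1 window, against 20.2% and 41.1% of all 27025 genes with a window. The 2 motifs were searched on both strands and do not overlap in letters here. These shares too describe the list, which holds genes that fell and genes that did not pass, and not the change with tau.

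Cdk1 fell by 0.67 and Ccna2, the cyclin of S phase, by 0.50 on the log2 scale. The spindle checkpoint kinase Bub1 fell by 0.72, Birc5 by 0.58, the replication clamp Pcna by 0.34 and the stem cell factor Sox2 by 0.22. Outside the list, the checkpoint gene Bub1b was among the 12 lowest named genes, at 2.02, 2.36 and 2.94 CPM with tau and 4.99, 4.05 and 5.73 CPM with PBS and a change of -1.02 ± 0.17 (adjusted p 0.00208, edgeR). The summed level of the 20 markers was 193 to 231 CPM with tau and 246 to 291 CPM with PBS, so the groups did not overlap. Counts of members that fell were 3, 2 and 13 without tau replicates 1, 2 and 3, and 2, 11 and 9 without PBS replicates 1, 2 and 3. All 19 were negative in each of these fits, and Nes and Cenpf passed in all of them.

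A marker of the oligodendrocyte lineage had the lowest p-value of the comparison. Olig1, a transcription factor of that lineage (GRCm38 chromosome 16, 91269772 to 91271933, plus strand), was at 135, 130.4 and 156 CPM with tau and 222, 212 and 237 CPM with PBS. The highest tau library lay far below the lowest PBS library, with a log2 fold change of -0.67 ± 0.064 (adjusted p 4.77e-06, edgeR). Olig2, its neighbour and partner, measured 17.4, 11.8 and 20.3 CPM against 29.5, 22.1 and 28.4 CPM, a change of -0.72 ± 0.13 (adjusted p 0.00382, edgeR). Pdgfra, the receptor of oligodendrocyte precursors, gave 4.83, 2.47 and 6.78 CPM with tau and 12.8, 4.52 and 11.4 CPM with PBS. PBS replicate 2 was low in Pdgfra and the groups overlapped, and the change was -1.12 ± 0.29 (adjusted p 0.0306, edgeR). The precursor markers Cspg4 (-0.33) and Lhfpl3 (-0.0065) did not pass, nor did Sox10 (-0.87) or the myelin genes Mbp (-0.14) and Cnp (-0.12), and Mag, Enpp6 and Gpr17 were too low to test.

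In all, 3 of 14 oligodendrocyte lineage markers tested fell, none rose, and 13 were negative (median -0.31). Left out in turn, tau replicates 1, 2 and 3 gave 2, 2 and 4 members that fell, and PBS replicates 1, 2 and 3 gave 1, 4 and 2, with Olig1 past the threshold each time. The summed level of the list was 764 to 828 CPM with tau and 847 to 1017 CPM with PBS. Most of it came from Ptprz1 (552 to 584 CPM with tau, 549 to 670 CPM with PBS) and Olig1 (130 to 156 and 212 to 237 CPM). Sox10 reached at most 1.25 CPM. Tnfrsf19, a receptor expressed in neural progenitors and glia, had the third lowest p-value of the comparison. It was at 113, 110.3 and 113 CPM with tau and 143, 151 and 152 CPM with PBS, a change of -0.41 ± 0.042 (adjusted p 8.18e-06, edgeR).

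Astrocyte genes did not move as 1 group. Gfap, the intermediate filament that marks reactive astrocytes (GRCm38 chromosome 11, 102887336 to 102900912, minus strand), rose from 389.6, 387 and 377 CPM with PBS to 581, 493 and 632 CPM with tau, a log2 fold change of 0.56 ± 0.068 (adjusted p 1.05e-04, edgeR). The highest of the 3 was tau replicate 3, and the groups were far apart. Atp1b2, a sodium pump subunit of astrocytes, also rose (0.21 ± 0.045). Fabp7, a fatty acid-binding protein of radial glia and immature astrocytes, instead fell from 566, 496 and 559 CPM to 354, 329 and 461 CPM (-0.50 ± 0.11, adjusted p 0.0104, edgeR). Id3 fell as well (-0.58 ± 0.12), as did the growth factor receptor Fgfr3 (-0.31 ± 0.070). Aqp4 (0.20, adjusted p 0.22), Slc1a2 (0.018, adjusted p 0.886) and Slc1a3 (-0.044, adjusted p 0.564) did not pass.

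Of 16 astrocyte markers tested, 2 rose and 3 fell, with a median of -0.095 and a summed level of 3499 to 3758 CPM with tau and 3384 to 3712 CPM with PBS. Leaving out tau replicate 1, 2 or 3 gave 2, 1 and 2 that rose and 1, 0 and 6 that fell. Leaving out PBS replicate 1, 2 or 3 gave 1, 2 and 2 that rose and 0, 4 and 4 that fell, and Gfap passed in every such fit. At the 2 counts of 0, 10 markers without tau replicate 2 and 9 without PBS replicate 1 had an unadjusted p under 0.05 in edgeR in either direction. Outside the lists, Kcnj16, a potassium channel subunit, fell from 6.80, 4.52 and 5.90 CPM to 2.81, 2.64 and 2.05 CPM (-1.23 ± 0.18, adjusted p 0.00101, edgeR). C4b, a complement component, rose from 4.81, 5.04 and 4.05 CPM to 6.54, 7.02 and 7.40 CPM (0.58 ± 0.13), although reads may have been split with its near-identical copy C4a.

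**Figure D3:**
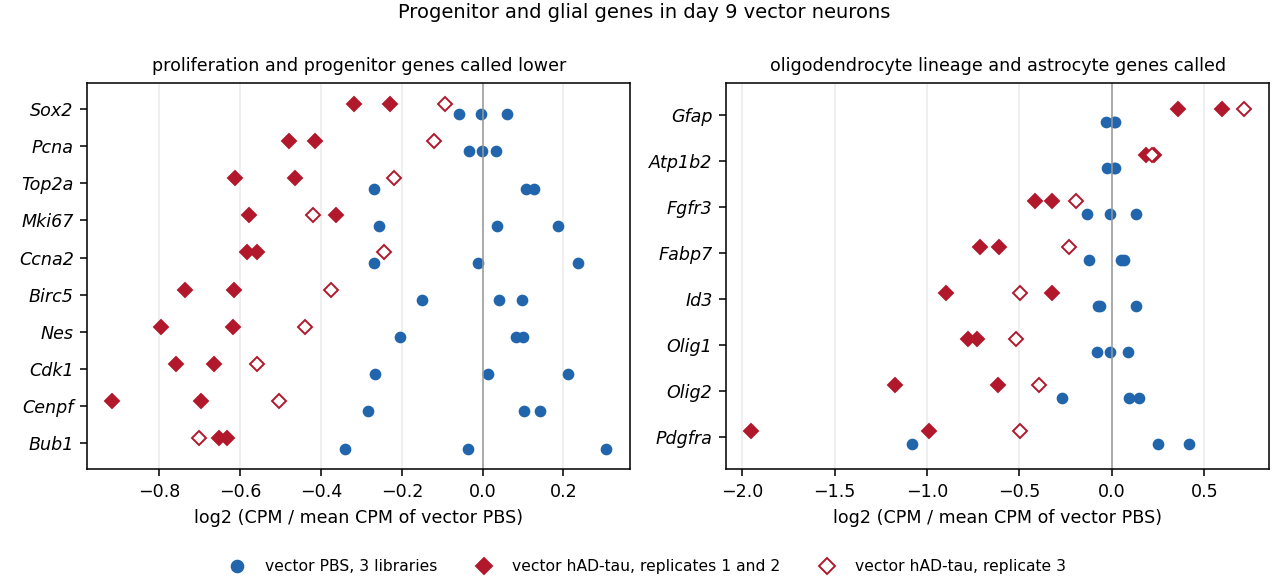
Level in each vector library of the proliferation and progenitor genes that fell (left) and of the oligodendrocyte lineage and astrocyte genes that passed the test (right), as log2 of CPM over the mean CPM of the 3 PBS libraries; symbols as in the plot of activity genes. Gfap and Atp1b2 lie above 0 in all 3 tau libraries, Olig1, Olig2 and Nes below all PBS libraries, and Pdgfra overlaps between the groups.

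Of the markers of other cell types 1 passed. Of 20 microglia markers, 14 stayed under 1 CPM in every vector library. Tmem119 had 3 reads over the 6 libraries, Cx3cr1 5 and P2ry12 19, and no member of the list was at 0. The list summed to 564 to 764 CPM with tau and 694 to 730 CPM with PBS, of which Apoe, which astrocytes also express, made up 551 to 750 CPM and 680 to 716 CPM. Of the 6 that could be tested none passed in edgeR or DESeq2, and 1 had an unadjusted p under 0.05, Cd68 at 1.10, 1.18 and 1.37 CPM with tau and 0.934, 0.405 and 0.405 CPM with PBS. Endothelial, mural and meningeal markers summed to 261 to 275 CPM with tau and 253 to 261 CPM with PBS, with Cldn5 at 4 reads in all, and 1 of 17 rose, the matrix protein Sparc (0.16 ± 0.041). Without tau replicate 3, 1 microglia marker fell, and 1 endothelial, mural or meningeal marker rose and 2 fell. No marker of either list passed without tau replicate 1, tau replicate 2 or PBS replicate 1 (edgeR; 1, 1 and 2 microglia and 3, 1 and 3 other markers at an unadjusted p under 0.05), and 2 of the latter list rose without PBS replicate 2. The part that changes in cell make-up had in the activity results was not tested.

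Members of the synaptic lists that passed were higher with tau, by small amounts. Over all genes, the tau change rose weakly with transcript length in vector neurons (Spearman correlation 0.13) and fell with it in upACSS2 neurons (-0.14). In a fit with offsets for length and GC, Nrxn2, Grik4 and Cacna1h, named below, did not pass. The cause was not tested. Outside the lists, the active-zone gene Rims3 (-0.27 ± 0.056) and the glutamate receptor Grm3 (-0.58 ± 0.080) fell. Of 28 postsynaptic scaffold and adhesion genes 4 rose and none fell, 24 were positive and the median was 0.082. Camk2a, a kinase of synaptic plasticity, was at 1110, 1139 and 1100 CPM with tau and 934, 902 and 1019 CPM with PBS, a log2 fold change of 0.23 ± 0.040 (adjusted p 0.00292, edgeR). It passed in all 6 fits that left out a library. The scaffold Dlg4 (PSD-95) rose by 0.15 ± 0.037 and the adhesion protein Nrxn2, which acts on the presynaptic side, by 0.17 ± 0.042. The count was 1 without tau replicate 1, tau replicate 2 or PBS replicate 1, 7 without tau replicate 3 and 3 and 5 without PBS replicates 2 and 3.

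Among 28 genes of presynaptic release 2 rose, the calcium sensor Syt7 (0.23 ± 0.051) and the vesicle SNARE Vamp2 (0.16 ± 0.037), with a median of 0.060. Of 20 AMPA, NMDA and kainate receptor subunits 2 rose, the obligatory NMDA subunit Grin1 (0.18 ± 0.044) and the kainate subunit Grik4 (0.17 ± 0.048). None of 19 GABA-A receptor and GABA synapse genes passed in edgeR or DESeq2, 5 had an unadjusted p under 0.05, and the median was 0.043. Of 31 genes in the list of voltage-gated channels, which also holds inward rectifiers, 2 rose, among them the T-type calcium channel Cacna1h (0.22 ± 0.060). In the same list 2 fell, the inward rectifier Kcnj4 (-0.33 ± 0.073) and the voltage-gated Kcna4 (-0.43 ± 0.12). Of these 7 genes, Kcna4 was the one whose groups overlapped. Without tau replicate 3, 5 presynaptic, 3 glutamate receptor and 3 GABA genes rose, and 2 channel genes rose and 2 fell. Without tau replicate 2 or PBS replicate 1 none of these 4 lists had a gene past the threshold in edgeR, with 6, 6, 2 and 5 and then 5, 3, 3 and 6 at an unadjusted p under 0.05. Without tau replicate 1 a single presynaptic gene rose and no gene of the other 3 lists passed (5, 4 and 4 unadjusted). Without PBS replicate 2 a single channel gene fell and none rose, and without PBS replicate 3, 1 GABA gene and 1 channel gene rose and 2 channel genes fell.

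Of 17 neuron markers, Map2 rose and the neurofilament genes Nefm and Nefl fell. Nefm, the medium chain of the axonal filament, was at 239, 242 and 274 CPM with tau and 312, 317 and 299.8 CPM with PBS, a change of -0.30 ± 0.049 (adjusted p 0.00192, edgeR), and the light chain Nefl changed by -0.15 ± 0.036 (adjusted p 0.0234, edgeR). The annotated span of Nefl lies within that of Nefm, and how the authors counted overlapping genes is not given in the sources used here. Of 16 interneuron markers Calb1 fell (-0.31 ± 0.061), and Dlx1 (0.33 ± 0.076) and Nos1 (0.24 ± 0.058) rose. In axon injury and growth genes, Klf7 rose from 41.7, 41.8 and 41.8 CPM to 49.3, 58.6 and 51.2 CPM (0.35 ± 0.059, adjusted p 0.00256, edgeR), and Sox11 rose by 0.29 ± 0.081 with overlapping groups. The 15 other members tested did not pass. Without tau replicate 3, 4 neuron, 3 interneuron and 3 axon injury genes rose and 3, 2 and 1 fell. Without tau replicate 1, tau replicate 2 or PBS replicate 1 no interneuron marker passed (edgeR; 6, 5 and 8 at an unadjusted p under 0.05), and 1 neuron marker fell and 1 axon injury gene rose in each of these fits. Without PBS replicate 2 the same lists had 2, 1 and 1 genes that rose and 1, 1 and 0 that fell, and without PBS replicate 3 they had 1, 2 and 2 that rose and 3, 1 and 0 that fell.

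The gene of tau itself did not pass. Mapt was at 2371, 2503 and 2327 CPM with tau material and 2311, 2441 and 2342 CPM with PBS, a change of 0.022 ± 0.036 (adjusted p 0.781, edgeR) with overlapping groups. Of 30 genes of tau, microtubule proteins and tau kinases 2 rose, the dendritic Map2 (0.15 ± 0.037) and Cdk5r1 (0.16 ± 0.046), the activator of the tau kinase Cdk5. Of 23 genes of tau uptake and aggregate handling 2 rose. Sdc3, a heparan sulfate proteoglycan, went from 882, 939 and 942 CPM to 1016, 1060 and 987 CPM (0.15 ± 0.037), and Bag3, a co-chaperone of selective autophagy, from 2.89, 2.49 and 2.78 CPM to 3.91, 3.87 and 3.90 CPM (0.50 ± 0.14). The chaperone-like ATPase Vcp was at -0.17 and just missed (adjusted p 0.0504, edgeR). Among genes of Alzheimer disease risk and amyloid, the kinase Ptk2b rose from 156, 167 and 191 CPM to 225, 225 and 206 CPM (0.36 ± 0.054, adjusted p 0.00113, edgeR) and the secreted chaperone Clu by 0.25 ± 0.058 (adjusted p 0.0195, edgeR), and 18 of 20 did not pass. Bag3 passed in 3 of 14 alternative fits, in none of them with a library left out, and Sdc3 in 9 of 14. Without tau replicate 3, 7 genes of the tau and microtubule list rose and 1 fell, 1 of the uptake list rose and 3 fell, and 4 of the Alzheimer list rose. Neither the tau and microtubule list nor the uptake list had a gene past the threshold without tau replicate 1, tau replicate 2 or PBS replicate 1 (edgeR; 10, 6 and 9 and then 7, 5 and 6 at an unadjusted p under 0.05). Without PBS replicate 2 the first had none (5 unadjusted) and the second 1 that rose, and without PBS replicate 3 the first had 2 that rose and the second 1 that rose and 2 that fell. The Alzheimer list had 1 without tau replicate 1 or PBS replicate 1, 2 without tau replicate 2 or PBS replicate 2 and 3 without PBS replicate 3.

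Most lists of stress and damage programmes had few calls with all 12 libraries. The NRF2 antioxidant list had the largest share, 2 higher and 2 lower of 16 tested. The calls in these lists depended on single libraries. The share of all genes tested that passed was 4.28%. In the unfolded protein and integrated stress response 1 of 27 rose, Calr (0.18 ± 0.038), and 1 fell, Pdia6 (-0.20 ± 0.051), while Atf4 was at -0.32 (adjusted p 0.0553, edgeR). Of 17 heat shock protein genes Hsph1 (-0.15 ± 0.040) and Hspa9 (-0.13 ± 0.037) fell and 15 were negative. The NRF2 antioxidant list split, with Gstm1 (0.29 ± 0.062) and Hmox1 (0.31 ± 0.089) higher and the thioredoxin Txn1 (-0.28 ± 0.061) and its reductase Txnrd1 (-0.21 ± 0.051) lower. Hmox1 passed in 5 of 14 alternative fits, and not in DESeq2 or limma voom. Gstm1 passed in 11 of these fits and Txn1 and Txnrd1 in 10. Of 17 p53 target and cell death genes only Pmaip1 rose (0.40 ± 0.095). Of 29 lysosome and autophagy genes Atp6v1h, a proton pump subunit, fell (-0.18 ± 0.041). Of 16 NF-kB targets and chemokines Cx3cl1, the neuronal ligand of the microglial receptor Cx3cr1, rose (0.17 ± 0.044). No interferon response or MHC class I gene of 14 tested passed in edgeR or DESeq2, although the list had the highest median (0.20), and 4 had an unadjusted p under 0.05.

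Without tau replicate 3, 7 heat shock genes fell, 1 gene of the unfolded protein list rose and 3 fell, and 1 interferon gene rose. The heat shock list had no gene past the threshold in edgeR without tau replicate 1, tau replicate 2, PBS replicate 1 or PBS replicate 2 (9, 8, 8 and 7 at an unadjusted p under 0.05), and 2 that fell without PBS replicate 3. The unfolded protein list had none without tau replicate 2 or PBS replicate 1 (6 and 4 unadjusted), 1 that rose without tau replicate 1, and 2 that rose and 3 that fell without PBS replicate 3. In the NRF2 list 2 rose and 2 fell without tau replicate 3, none passed without tau replicate 1 or PBS replicate 1 (6 unadjusted in each), 1 rose without tau replicate 2, 1 rose and 2 fell without PBS replicate 2, and 2 rose and 3 fell without PBS replicate 3. Of the p53, lysosome and NF-kB lists, 2, 0 and 1 genes rose and 1, 2 and 2 fell without tau replicate 3. None of these 3 lists had a gene past the threshold without tau replicate 1 (4, 3 and 5 unadjusted), tau replicate 2 (1, 7 and 3) or PBS replicate 1 (2, 3 and 5). Without PBS replicate 2 no lysosome gene passed (6 unadjusted), and in the NF-kB list 1 fell and none rose.

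Apart from cholesterol synthesis and uptake, with 1 higher and 4 lower of 25, the metabolic lists had few calls with all 12 libraries. Over all genes tested 4.28% passed. The calls in these lists, cholesterol included, depended on single libraries. Of 25 genes of cholesterol synthesis and uptake 4 fell. Among them, the sterol transporter Stard4 went from 274, 213 and 194 CPM to 182, 177 and 179 CPM (-0.35 ± 0.10) and Msmo1, an enzyme of the synthesis, from 414, 369 and 343 CPM to 328, 319 and 335 CPM (-0.20 ± 0.056). Abcg1, which exports cholesterol, rose (0.39 ± 0.078). In these 3 genes PBS replicate 1 was the PBS library farthest from the tau libraries. Of 28 nuclear-encoded respiratory chain genes 27 were negative and Ndufs1 fell (-0.18 ± 0.044), and of 27 glycolysis and hypoxia targets 23 were negative and Pkm (-0.18 ± 0.045) and Slc2a1 (-0.46 ± 0.13) fell. Among all genes tested, 7002 of 14022 were negative and 2.27% fell. None of 19 genes of acetyl-CoA and fatty acid synthesis passed with all 12 libraries in edgeR or DESeq2, with 6 at an unadjusted p under 0.05. Of 17 neurotrophins, growth factors and receptors Fgf10 rose (0.45 ± 0.10), and of 6 metallothionein and zinc genes none passed in edgeR or DESeq2, with 1 at an unadjusted p under 0.05.

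Without tau replicate 3, 7 cholesterol, 8 glycolysis, 8 respiratory chain and 3 acetyl-CoA genes fell and 2 cholesterol genes rose. Without tau replicate 1, tau replicate 2 or PBS replicate 1 no gene of these 4 lists fell in edgeR, and the cholesterol genes at an unadjusted p under 0.05 were then 13, 12 and 7, the glycolysis genes 5, 3 and 8, the respiratory chain genes 10, 8 and 12 and the acetyl-CoA genes 3, 4 and 1. A single cholesterol gene rose without tau replicate 1, and none rose without tau replicate 2 or PBS replicate 1. Without PBS replicate 2, 3 cholesterol, 2 glycolysis and 2 acetyl-CoA genes fell and no respiratory chain gene did (7 unadjusted). Without PBS replicate 3, 11 cholesterol, 1 glycolysis, 2 respiratory chain and 1 acetyl-CoA genes fell. In the growth factor list 1 rose and 2 fell without tau replicate 3, 2 rose without PBS replicate 3, and none passed without tau replicate 1, tau replicate 2 or PBS replicate 1 (7, 3 and 3 unadjusted). A single metallothionein or zinc gene rose without tau replicate 3.

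**Figure D4:**
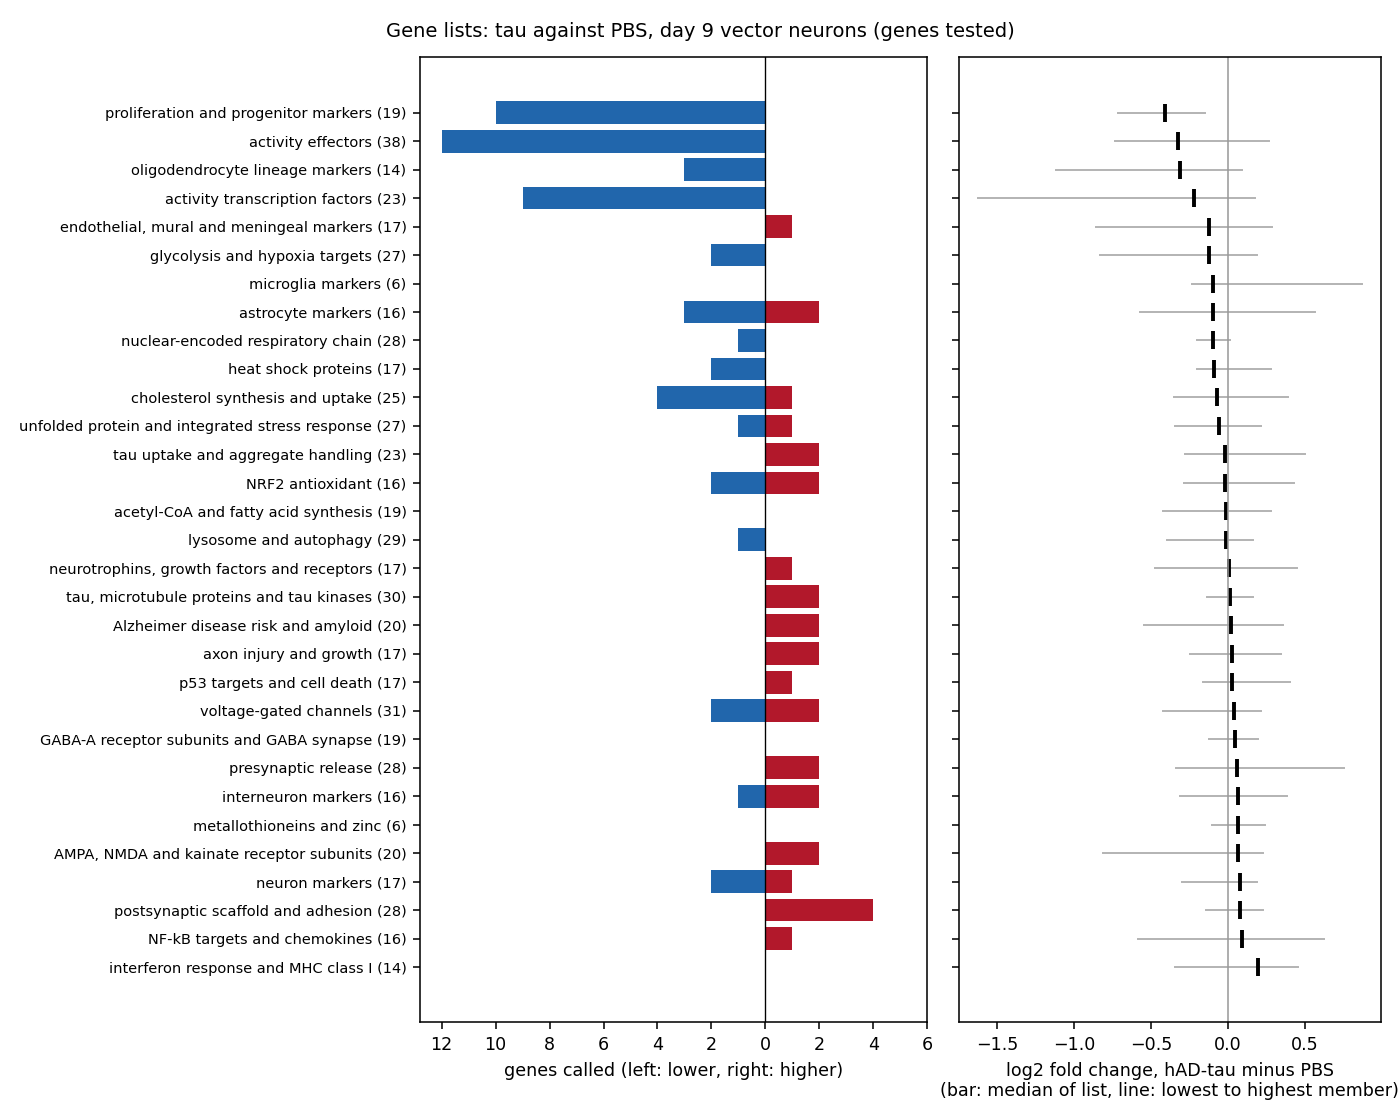
Left, genes of each list that rose (right of 0) or fell (left of 0) with tau in day 9 vector neurons, with the number tested in parentheses; right, the median log2 fold change of each list (bar) and its lowest to highest member (line). The most calls are in activity effectors (12 lower), proliferation and progenitor markers (10 lower) and activity transcription factors (9 lower).

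Outside these lists, the transferrin receptor Tfrc, which imports iron, had the second lowest p-value of the comparison. It was at 321, 337 and 314 CPM with tau and 432, 446 and 439.7 CPM with PBS, a change of -0.44 ± 0.044 (adjusted p 7.68e-06, edgeR; GRCm38 chromosome 16, 32608920 to 32632794, plus strand). Cbs, which makes cystathionine from homocysteine, fell from 17.3, 15.98 and 18.3 CPM to 10.3, 10.6 and 11.98 CPM (-0.66 ± 0.085, adjusted p 2.79e-04, edgeR). Abca8a, a lipid transporter, fell too (-0.76 ± 0.13). The carbonic anhydrase-related Car8 (-0.96 ± 0.20), the receptor Prokr2 (-0.99 ± 0.25) and the actin-binding Cnn2 (-0.94 ± 0.20) were low in level and fell, as did Prr11 (-0.84) and Lcat (-0.79). Prr11 and Lcat passed in 6 of 14 alternative fits, Prokr2 in 9 and Car8 and Cnn2 in 10. Of these genes, DESeq2 called Car8 alone.

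The gene that rose most among those with a mean of at least 1 log2 CPM and groups that did not overlap was the orphan receptor Gpr139, from 2.77, 3.53 and 3.41 CPM with PBS to 6.30, 5.84 and 4.25 CPM with tau (0.80 ± 0.20, adjusted p 0.0281, edgeR). The lysosomal sulfatase Arsg (0.71), the oncostatin M receptor Osmr (0.66), Col18a1 (0.65), Rnase4 (0.58), Zbed5 (0.58), B3gnt7 (0.57), Parm1 (0.57) and Rtl9 (0.57) rose by similar amounts. Slc44a5, a choline transporter-like protein, was better expressed and rose from 41.7, 50.4 and 59.9 CPM to 78.7, 84.7 and 61.6 CPM (0.59 ± 0.11). Strip2 rose from 9.34, 9.67 and 9.72 CPM to 14.3, 17.6 and 12.9 CPM (0.65 ± 0.10) and passed in all 6 fits without a library, which the other 10 genes named in this group did not. Zbed5 passed in 4 of 14 alternative fits, Col18a1 and B3gnt7 in 6, Osmr in 7, Arsg and Rnase4 in 9, Gpr139, Parm1 and Rtl9 in 10 and Slc44a5 in 11. B930025P03Rik, a transcript of unknown role, had the largest positive change but few reads, 0.795, 0.786 and 1.10 CPM with tau and 0.117, 0.174 and 0.231 CPM with PBS (2.42 ± 0.40, adjusted p 0.00223, edgeR). It passed in 13 of 14 alternative fits but not in DESeq2, and was the 1 gene that passed in the fit of 24 libraries.

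The upACSS2 neurons of the same day give a comparison of tau with PBS that shares no library with the one above. There 49 genes passed (0.349% of those tested), 30 higher and 19 lower. The count was 15, 2 and 1 without upACSS2 tau replicates 1, 2 and 3, and 5, 8 and 23 without upACSS2 PBS replicates 1, 2 and 3. The comparisons had 15 called genes in common, which are 2.5% of the vector calls and 30.6% of the upACSS2 calls, and 13 of them moved the same way. Gfap rose by 0.56 ± 0.068 in vector and 0.69 ± 0.068 in upACSS2 neurons (adjusted p 1.05e-05 in the latter), and Clu by 0.25 ± 0.058 and 0.30 ± 0.058 (adjusted p 0.0278). The change of Tfrc was -0.44 ± 0.044 and -0.29 ± 0.043 (adjusted p 0.00508), of Olig1 -0.67 ± 0.064 and -0.32 ± 0.062 (adjusted p 0.0278), and of Npas4 -1.34 ± 0.18 and -0.84 ± 0.17 (adjusted p 0.037, all edgeR). The others were Tnfrsf19, Dio2, Lfng, Rims3 and Gtf2f1, lower in both, and Ly6e, Synpr and Cav1, higher in both. Over all 600 vector calls, 49.2% had the same sign in upACSS2 neurons, against 46.5% of all genes tested.

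No other member of the activity lists passed in upACSS2 neurons than Npas4. The upACSS2 change of Fosb was -0.60 ± 0.22 (adjusted p 0.365, edgeR), of Fos -0.18 ± 0.13 (adjusted p 0.72), of Nr4a1 -0.020 ± 0.16 (adjusted p 0.986) and of Bdnf 0.056 ± 0.10 (adjusted p 0.92). Tests of the difference between the viruses missed the threshold for these genes, with an adjusted interaction p of 0.318 for Npas4, 0.112 for Fosb, 0.065 for Fos, 0.0706 for Nr4a1 and 0.0539 for Bdnf. The same held for Nes (-0.21 ± 0.087 in upACSS2, interaction 0.0957), Cenpf (-0.22 ± 0.11, interaction 0.107) and Olig1 (interaction 0.0552). In the upACSS2 neurons the list medians were -0.057 for activity transcription factors, 0.025 for effectors, -0.053 for proliferation and progenitor markers and 0.047 for oligodendrocyte lineage markers, beside 0.0012 over all genes. The levels with PBS are given side by side without a test: Npas4 was at 13.9 ± 1.38 CPM with vector and 11.4 ± 4.10 CPM with upACSS2, and Bdnf at 94.9 ± 13.4 and 74.2 ± 13.2 CPM (SD, n = 3 each).

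**Figure D5:**
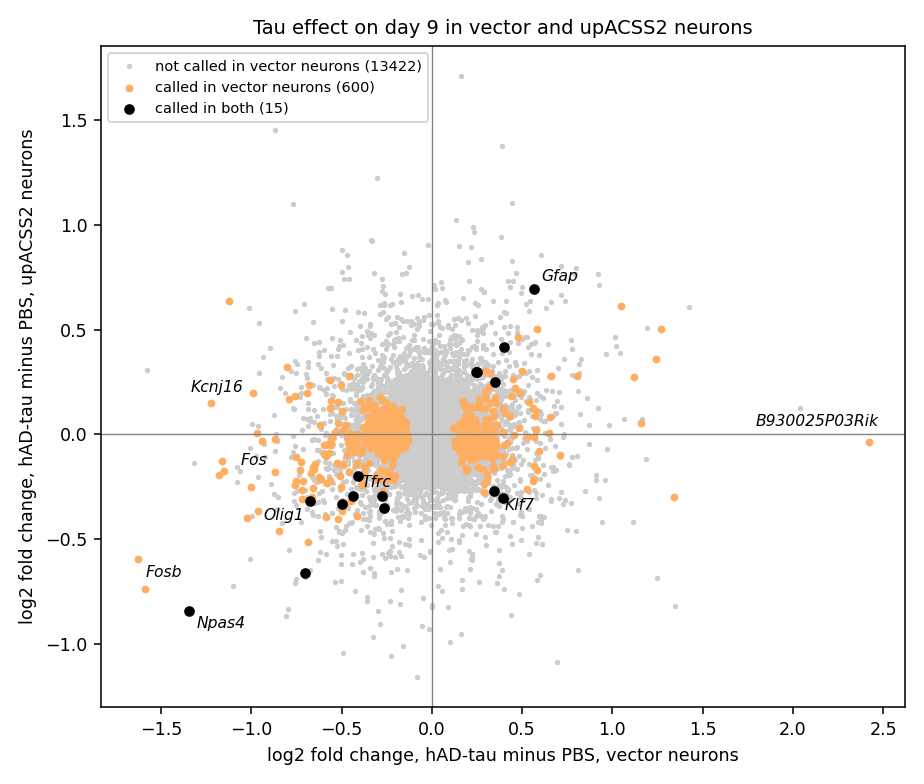
Log2 fold change of tau against PBS on day 9 in vector neurons (horizontal) and in upACSS2 neurons (vertical) for 14022 genes; orange, 600 genes past the threshold in vector neurons; black, 15 past it in both. Gfap lies high in both and Npas4 low in both, while Klf7 is among the 2 black points to the lower right, higher in vector and lower in upACSS2 neurons.

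The test of the difference itself, tau by virus, passed for 93 genes (0.663% of those tested). In 53 of them the tau change was positive in vector and negative in upACSS2 neurons, in 38 the reverse, and 62 were among the 600 vector calls. Klf7, a growth-promoting transcription factor of neurons, rose by 0.35 ± 0.059 in vector and changed by -0.27 ± 0.056 in upACSS2 neurons (adjusted p 0.041), a difference of 0.61 ± 0.081 (adjusted p 9.48e-04, edgeR). Dpysl2 (CRMP2), which binds tubulin in growing axons, was at 478, 485 and 429 CPM with vector and tau and 367, 351 and 341 CPM with vector and PBS. Its tau change was 0.39 ± 0.066 in vector and -0.31 ± 0.065 in upACSS2 neurons, a difference of 0.70 ± 0.093 (adjusted p 9.48e-04, edgeR). Rgma, a guidance molecule, went from 63.7, 65.2 and 65.7 to 81.5, 83.3 and 75.1 CPM with vector, and the difference between the viruses was 0.52 ± 0.073 (adjusted p 0.00143, edgeR). Dpysl2 and Rgma are named because they and Klf7 are the 3 genes that passed this test in all 12 fits without a library, and were picked after their values were seen. The interaction count was 3, 3 and 918 without vector tau replicates 1, 2 and 3, 3, 34 and 163 without vector PBS replicates 1, 2 and 3, 3, 30 and 12 without upACSS2 tau replicates 1, 2 and 3, and 13, 3 and 132 without upACSS2 PBS replicates 1, 2 and 3.

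On culture day 21 the same 2 treatments were sampled in 6 other vector libraries. The tau changes of the 2 days differed past the threshold in 1 gene (0.00673% of 14863 tested in a fit of 24 libraries), the matrix protein Fbln2, with a difference of -1.49 ± 0.23 (day 9 minus day 21, SE, adjusted p 0.0383, edgeR). DESeq2 called 2, and the count was 0 without any 1 of the 6 day 9 libraries, with 847 to 1148 genes at an unadjusted p under 0.05 in those fits. It was 0 without day 21 tau replicate 1 or any 1 of the day 21 PBS libraries, 1 without day 21 tau replicate 2 and 3 without day 21 tau replicate 3. On day 21 itself the change of Gfap was -1.57 ± 0.44 (adjusted p 0.0914, edgeR), of Npas4 0.60 ± 0.50 (adjusted p 0.504), of Fos -0.76 ± 0.29 (adjusted p 0.152), of Nes -1.30 ± 0.36 (adjusted p 0.0899) and of Olig1 -0.11 ± 0.19 (adjusted p 0.76). The standard errors on day 21 were larger, so the values of the days are set side by side only.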

How the data were processed

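The deposited table holds whole-number read counts per gene, made by the authors before deposit. STAR, featureCounts, HTSeq, DESeq2 and the mouse genome mm10 are listed in the submitters' processing notes without role or version, and the strand setting is not given in the sources used here. From these counts, the 12 day 9 libraries were fitted with edgeR 4.0.16 (R 4.3.3; filterByExpr, TMM, 1 coefficient per group, quasi-likelihood test), with p-values adjusted by Benjamini-Hochberg over all genes tested and a threshold of 0.05. The effect of tau by day came from a fit of all 24 unstimulated libraries. Alternatives were DESeq2 1.42.0, limma 3.58.1 voom, other scaling, filters and groupings of libraries, and each library left out. Fold changes are log2, tau minus PBS, with standard errors. The code was tested on simulated data.

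The comparison, the fit to day 9 alone, the 31 gene lists and the naming rule were chosen with earlier results of these data known. The rule names the 12 highest and 12 lowest changes past the threshold (mean of at least 1 log2 CPM, no overlap of groups, no clone names), the 5 lowest p-values and up to 4 members per list with the lowest p. Further genes named, which include other list members, were picked after their values were seen. Gene coordinates come from GENCODE (GRCm38) and promoters from RefSeq (GRCm38.p6), matched by symbol, with a window found for 19 of 24 activity transcription factors and 17 of 20 proliferation and progenitor genes. Some genes are not reported here.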

Additional observations from a re-analysis of the deposited data

Results flagged for a closer look

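The effect of tau differed between vector and upACSS2 neurons, by edgeR's interaction test, for 13 of the named genes. The values below are the tau effect in vector minus that in upACSS2 neurons, in log2 units. Among synaptic and neuronal genes the difference was 0.23 for Vamp2, 0.23 for Dlg4, 0.28 for Nrxn2, 0.34 for Nos1 and -0.31 for Nefm. It was 0.31 for Elavl3, an RNA-binding protein of neurons, whose effect in vector neurons alone missed the threshold (adjusted p 0.0513, edgeR). The developmental transcription factors Klf7 and Sox11 differed by 0.61 and 0.56. Among glial genes Fabp7 differed by -0.74 and Kcnj16 by -1.37. Cbs differed by -0.50, Slc44a5 by 0.67 and the sparse transcript B930025P03Rik by 2.45. Of these 13, Klf7 passed in all 12 fits that left out a library, Kcnj16 in 7, Elavl3 and Fabp7 in 6, Nrxn2 in 4, Nefm, Slc44a5 and Sox11 in 3, B930025P03Rik, Dlg4, Nos1 and Vamp2 in 2 and Cbs in 1.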

How the results depend on the processing

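The 600 calls of the vector comparison became 1153 with no filter on low counts, 257 with only the 6 vector libraries and 1 with all 24 libraries, and 60 to 1409 with a library left out. DESeq2 gave 604, of which 512 were shared. The 49 calls in upACSS2 neurons became 79 with DESeq2, 201 with no filter, 95 with voom, 0 with 24 libraries (181 at an unadjusted p under 0.05), 125 with only their groups, 83 with offsets for length and GC, and 1 to 23 with a library left out. The 93 interaction calls became 307 with DESeq2, 794 with no filter, 171 with voom, 0 with 24 libraries (376 at an unadjusted p under 0.05), 169 with the offsets, and 3 to 918 with a library left out. The 1 call for tau by day became 2 with DESeq2, 0 with no filter, voom or only the groups compared, and 0 to 3 with a library left out. The cause was not tested. The 181 and 376 genes at an unadjusted p under 0.05 with 24 libraries are out of 14863 tested, each a share below 0.05. The offsets were chosen after seeing the data.

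Of the alternatives for single named genes, 870 kept direction and side of the threshold, 380 lost the call and 3 reversed, all for genes that had not passed: Mapt at -0.010 without tau replicate 2, and Acss2 at -0.006 without tau replicate 3 and -0.013 without PBS replicate 2, where the other fits without a library reached 0.046 for Mapt and 0.149 for Acss2. Same-numbered libraries did not deviate together (correlations of -0.0602, -0.0565 and -0.0994), so the numbers were not taken as pairs. With the replicate block, the counts were 552 in vector neurons, 42 in upACSS2 neurons, 142 for the interaction and 0 for tau by day. With no filter on low counts 11 cholesterol, 9 glycolysis, 8 respiratory chain, 6 heat shock, 4 unfolded protein and 4 acetyl-CoA genes fell. The NRF2 list's median turned from -0.018 to 0.009 with the offsets. The median of the postsynaptic list went from 0.082 to 0.056, and that of the respiratory chain list from -0.095 to -0.061. For the channel list it went from 0.042 to 0.008, with 0 genes higher and 2 lower. The presynaptic median stayed near 0.06 (0.060 and 0.061). Low counts limit B930025P03Rik, Fosb, Prr11, Lcat, Maff, Pdgfra, other genes at a few CPM and the microglia markers.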

Other observations

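The subunits of the proteasome, the complex that degrades ubiquitin-tagged proteins, were lower with tau in vector neurons. The family was picked after its values were seen, so its counts are a description. Of 36 genes named Psma, Psmb, Psmc or Psmd that were tested, 22 fell and none rose, 35 were negative and the median log2 fold change was -0.19. Among all genes tested, 2.27% fell and 7002 of 14022 were negative. The regulatory subunit Psmd12 was at 115, 113 and 118 CPM with tau and 145, 143 and 134 CPM with PBS, a change of -0.29 ± 0.046 (adjusted p 0.00192, edgeR). The ATPase subunit Psmc5 was at 107, 103 and 116 CPM against 134, 134 and 131 CPM (-0.29 ± 0.050, adjusted p 0.00258, edgeR). The core subunit Psma1 gave 127, 115 and 119 CPM with tau and 143, 149 and 142 CPM with PBS (-0.26 ± 0.045, adjusted p 0.00258, edgeR), and the deubiquitinase subunit Psmd14 109, 105 and 112 CPM against 129.9, 141 and 125 CPM (-0.28 ± 0.048, adjusted p 0.00258, edgeR). In these genes the groups did not overlap.

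The number of proteasome genes that fell was 12, 5 and 24 without tau replicates 1, 2 and 3, and 9, 14 and 24 without PBS replicates 1, 2 and 3. DESeq2 called 23. None passed in edgeR's fit of 24 libraries, with 20 at an unadjusted p under 0.05. In upACSS2 neurons none of the 36 passed in edgeR or DESeq2, with 2 at an unadjusted p under 0.05 in each, 26 were negative and the median was -0.029. Over all genes, 1269 of 14022 had such a p there in edgeR, and 2409 had one in the test of tau by virus. The test of tau by virus passed for 3 of them, Psmd6, Psmd14 and Psmc5, which passed in 3, 3 and 2 of the 12 fits without a library. The number of proteasome genes past that test was 16 without vector tau replicate 3, 6 without vector PBS replicate 3, 2 without upACSS2 PBS replicate 3 and 0 in the other 9 such fits in edgeR (18 to 22 at an unadjusted p under 0.05), and 7 in DESeq2. Psmd12, Psmc5, Psma1, Psmd14 and Psma7 were among the 47 genes that passed with each vector library left out in turn.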
